A study of Mus musculus with 3072 samples.

Results

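Sult1a1, Mettl7a1, Aldh1a1, Abcb1a, Abcb1b, Abcg2, Gstm1 and Mgst1 encode enzymes and pumps that modify or export foreign and reactive compounds. They were taken by symbol from a matrix of 55291 gene symbols measured in single bone marrow cells, and all 8 were found there. The set was drawn up partly because Sult1a1 and Mettl7a1 stood high in the population labelled HSC, so levels in HSC against the other populations are given as a description without a test. The cells came from 8 C57BL/6 mice of genotype WT that carried transplanted barcoded stem cells. The control group has 4 mice, taken at week 32 after transplantation, and the platelet-depleted group has 4 mice, taken at week 28. The agent that removed the platelets is not given in the sources used here, nor is the share of host cells left in the sorted populations. Treatment, week and experiment code coincide in all 8 mice, so they cannot be told apart. Marrow cells were stained, sorted singly by flow cytometry and sequenced by the Smart-seq2 method, which amplifies whole transcripts and has no molecular identifiers.

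Cells clear reactive compounds in steps. Phase I enzymes such as aldehyde dehydrogenases oxidise or reduce a compound, phase II enzymes couple it to sulfate, glutathione, a methyl group or a sugar, and transporters of the ATP-binding cassette (ABC) family pump it out. In blood stem cells Abcg2 and the P-glycoproteins Abcb1a and Abcb1b are known for extruding fluorescent dyes, and aldehyde dehydrogenase activity is a long-used label of primitive marrow cells.

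The cell filter kept 2668 of the 3069 wells, namely 697 HSC, 647 CFU and 1324 MkP. The labels do not spell these names out. A cell was said to hold a marker list when at least 3 of its genes stood at 50 CPM or more, where CPM is the count scaled to a total of 1000000. The HSC list (Procr, Slamf1, Hlf and others) was held by 654 HSC, 4 CFU and 311 MkP. The megakaryocyte list was held by 427 HSC, 1 CFU and 1123 MkP, and the erythroid list by 29 HSC, 631 CFU and 388 MkP. The cells labelled CFU thus carried mainly erythroid markers, and they are called by their label throughout. Lists of myeloid, neutrophil, mast and basophil or B cells were held by 4 HSC, 14 CFU and 29 MkP. The median kept cell had 1319671 counts in control and 1368055 in depleted mice for HSC, 2306232 and 2425929 for CFU, and 1469625 and 1756642 for MkP. Adding up these cells by mouse and population gave 24 sums of 68792249 to 327869432 counts.

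The stretches in front of Sult1a1, Mettl7a1 and Gstm1 are printed because these 3 genes were lower together in one class of HSC, described further on. Each is the 250 bases before the transcription start, 5′ to 3′ on the gene's strand, from the RefSeq table of build GRCm38.p6, in which all 8 genes were found with 13 windows. The Sult1a1 window is chr7:126676419-126676668 on the minus strand, the Mettl7a1 window is chr15:100304567-100304816 on the plus strand, and the Gstm1 window, which lies in front of the more downstream of its listed starts, is chr3:108017819-108018068 on the minus strand. Capitals mark a match to a motif that was searched.
Sult1a1: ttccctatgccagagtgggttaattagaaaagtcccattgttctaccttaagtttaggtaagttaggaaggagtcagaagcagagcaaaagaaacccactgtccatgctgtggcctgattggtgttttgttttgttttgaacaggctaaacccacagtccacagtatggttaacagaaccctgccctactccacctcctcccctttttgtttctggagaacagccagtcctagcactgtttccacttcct
Mettl7a1: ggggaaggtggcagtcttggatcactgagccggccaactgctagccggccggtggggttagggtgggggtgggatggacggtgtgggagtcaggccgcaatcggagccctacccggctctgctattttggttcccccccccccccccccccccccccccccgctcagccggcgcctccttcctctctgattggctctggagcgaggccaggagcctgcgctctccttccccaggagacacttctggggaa
Gstm1: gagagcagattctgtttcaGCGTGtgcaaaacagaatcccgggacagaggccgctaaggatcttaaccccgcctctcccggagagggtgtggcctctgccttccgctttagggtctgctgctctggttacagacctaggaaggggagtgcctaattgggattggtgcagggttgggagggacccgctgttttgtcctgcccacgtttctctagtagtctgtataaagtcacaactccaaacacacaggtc
The windows differ in base composition, with a GC content of 45.6% for Sult1a1, 68.8% for Mettl7a1 and 54.8% for this Gstm1 window, against a median of 52.4% over 32851 windows of the same length. The motifs searched on both strands were GCGTG (the core of the xenobiotic response element), TGACNNNGC (the core of the antioxidant response element), AGATAA (bound by GATA factors), TGTGGT (RUNX), CCGGAAGT (ETS), GGGCGG (GC box) and CACGTG (E-box), and overlapping matches were all kept. The Sult1a1 and Mettl7a1 windows hold none of these letters, and both Gstm1 windows hold GCGTG, as 28.2% of all windows do. The Gstm1 windows overlap, and the match in both is the same site. Among the other genes, a window of Mgst1 holds TGACNNNGC (10.2% of all windows), a window of Aldh1a1 holds AGATAA (9.99%), and a window of Abcg2 holds TGTGGT (14%). Windows of Abcb1b, Abcg2 and Mgst1 hold GGGCGG (32.7%). CCGGAAGT (2.88% of all windows) and CACGTG (6.02%) are in none of the 13 windows. The printed windows thus share no motif of this search.

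Among the conjugating enzymes, Sult1a1, which moves sulfate from the donor PAPS onto phenols, had the steepest gradient between populations. In HSC of the 4 control mice it stood at 264, 259, 152 and 213 CPM, and in the 4 depleted mice at 207, 165, 265 and 301 CPM. In MkP the 8 sums ranged from 0.411 to 4.58 CPM with a median of 1.31, and in CFU from 0 to 0.665 CPM with a median of 0.136. Every HSC sum lay above every sum of the other populations. The ratio of mean CPM was 120 for HSC over MkP and 1188 for HSC over CFU, the latter resting on 232 counts in 647 CFU. In MkP 10 of 1324 cells held 56.3% of the Sult1a1 counts, and the 311 MkP that held the HSC list had 50.2% of them. Fewer cells of a kind and less RNA per cell cannot be told apart in such sums, which is why shares of cells are given further on. Reads over Sgf29, which overlaps the Sult1a1 exons on the opposite strand, cannot be told apart from Sult1a1 reads, since no strand rule is stated.

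Mettl7a1, a methyltransferase of the endoplasmic reticulum and lipid droplets, was also highest in HSC, but with clear levels elsewhere. Its HSC sums were 262, 247, 169 and 179 CPM in control and 230, 156, 217 and 181 CPM in depleted mice. CFU ranged from 38.7 to 55.4 CPM and MkP from 14.3 to 41.7 CPM. All 8 HSC sums lay above all others, and the ratio of mean CPM was 4.58 over CFU and 7.64 over MkP. Of the 50-base windows along its transcript, 24.8% also occur in Mettl7a2, Mettl7a3 or Methig1, so reads there are uncertain between these genes.

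Gstm1, a cytosolic transferase that couples glutathione to electrophiles, followed the same order in HSC and MkP. HSC stood at 283, 320, 179 and 189 CPM in control and 265, 253, 319 and 251 CPM in depleted mice. MkP ranged from 30.2 to 70.3 CPM. CFU split into sums of 22, 5.85, 29.9 and 4.54 CPM in control and 9.74, 31.2, 8.61 and 28.5 CPM in depleted mice. Of the Gstm1 counts in CFU, 62.7% came from the 14 cells that held a myeloid, neutrophil or B cell list, and without those cells the mean over 8 mice went from 14.5 to 5.38 CPM of the whole sum. HSC sums lay above all others with or without them. The sequence of Gstm1 is shared in 23.1% of its 50-base windows, with Gstm3 and the pseudogene Gstm2-ps1 among others.

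Mgst1, the membrane-bound glutathione transferase, was low throughout. HSC stood at 11.5, 10.8, 11.2 and 11 CPM in control and at 7.98, 16.1, 17.7 and 15 CPM in depleted mice, so the control mice lay close together and the depleted mice on both sides of them. MkP ranged from 0.889 to 5.5 CPM. In CFU the sums ran from 0 to 6.8 CPM, and 92.3% of the counts lay in the same 14 cells, so the mean went from 1.75 to 0.138 CPM of the whole sum without them.

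Aldh1a1, a cytosolic aldehyde dehydrogenase that also makes retinoic acid, was high in all 3 populations. HSC stood at 392, 310, 320 and 334 CPM in control and 288, 405, 278 and 290 CPM in depleted mice. CFU ranged from 228 to 304 CPM and MkP from 208 to 332 CPM, and both overlap with HSC. The ratio of mean CPM was 1.24 over CFU and 1.25 over MkP, a difference that 7 of 8 mice showed in each case.

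The pumps did not share one pattern. Abcb1b stood at 31, 41.8, 30.5 and 31.6 CPM in control HSC and at 42.7, 30, 41.3 and 42.1 CPM in depleted HSC. It ranged from 13 to 32.5 CPM in MkP, which overlaps with HSC, and from 0.306 to 2.89 CPM in CFU. Its neighbour on chromosome 5, Abcb1a, stood at 10.6, 15.1, 2.12 and 15.5 CPM in control HSC and 9.0, 12.2, 14.6 and 3.5 CPM in depleted HSC. Abcb1a ranged from 0.0649 to 6.51 CPM in MkP and from 0.0588 to 0.162 CPM in CFU. The spread of Abcb1a within HSC was wide, with 1 control and 1 depleted mouse well under the rest, and 10 of 697 cells held 36.6% of its HSC counts. The P-glycoprotein genes share sequence, with 18.6% of the Abcb1a windows and 19.6% of the Abcb1b windows found in another gene, mainly in each other. Their exons also overlap with Gm42686 (Abcb1a) and Gm5106 (Abcb1b) on the opposite strand.

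Abcg2, the dye and porphyrin exporter, was high in both HSC and CFU, and their order depends on the scaling. It stood at 118, 175, 117 and 126 CPM in control HSC and 113, 146, 120 and 122 CPM in depleted HSC. CFU stood at 150, 152, 117 and 154 CPM in control and 158, 182, 166 and 171 CPM in depleted mice, and MkP ranged from 66 to 92.6 CPM. HSC lay above MkP in every sum. The means of HSC and CFU were 130 and 156 CPM after trimmed-mean (TMM) scaling, and 145 and 132 CPM of the whole sums.

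**Figure D1:**
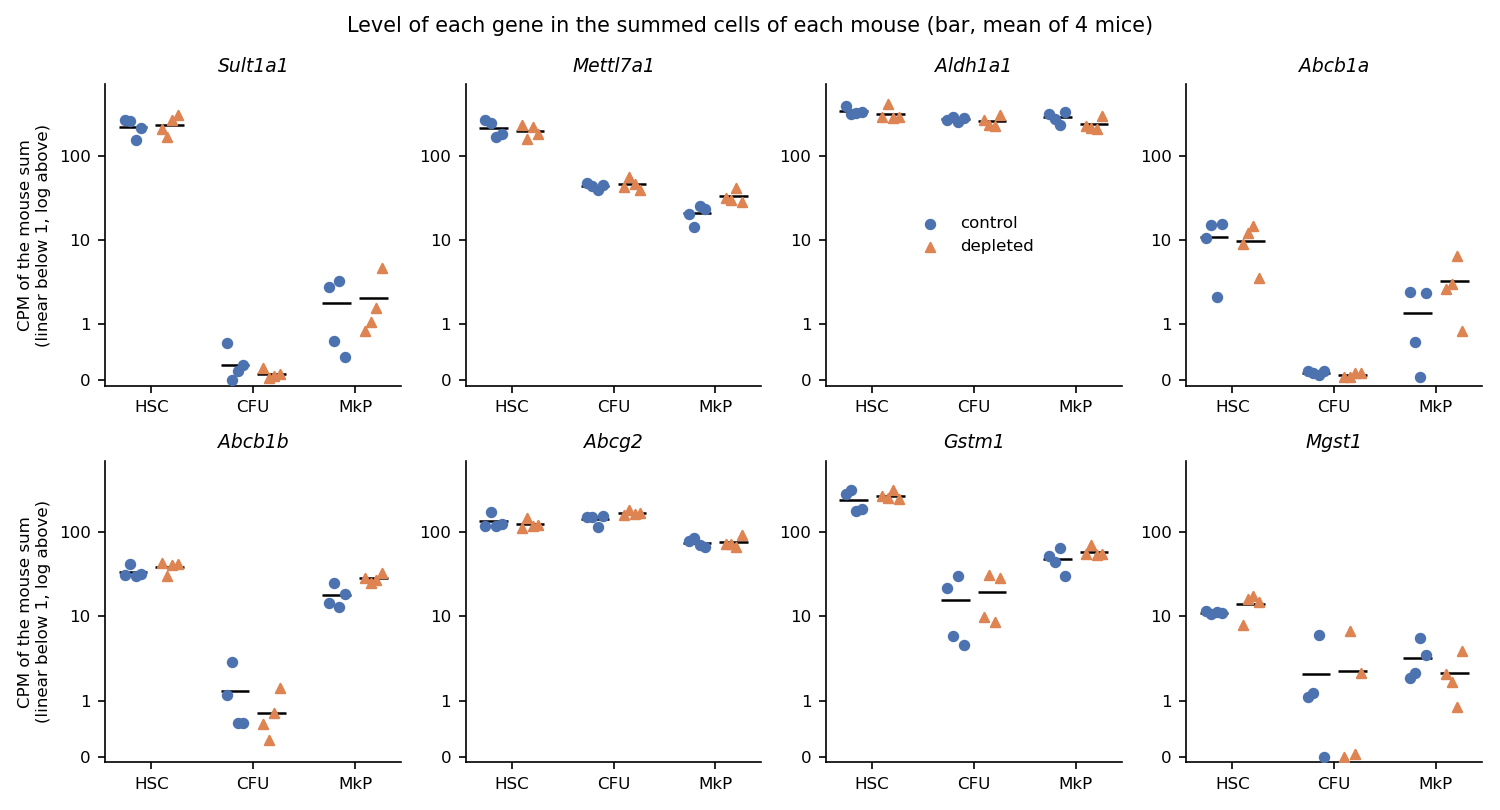
Level of each gene (CPM of the mouse sum, after TMM scaling) in HSC, CFU and MkP, with 1 point per mouse and a bar at the mean of 4 mice. The axis is linear under 1 CPM and logarithmic above it. Sult1a1 stood at 152 to 301 CPM in HSC and at no more than 4.58 CPM elsewhere, and Aldh1a1 was at 208 CPM or more in all 24 sums.

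Of the 8 genes, 6 had HSC sums that lay wholly above the CFU sums, all but Aldh1a1 and Abcg2, and 5 had HSC sums wholly above the MkP sums, namely Sult1a1, Mettl7a1, Abcg2, Gstm1 and Mgst1. Over all 19573 genes tested, 18.3% lay wholly above CFU and 5.98% wholly above MkP in HSC. Nothing is read from these counts, because the set was chosen partly on them. Per kilobase of exon, Gstm1 was highest in HSC at 175 CPM per kb, followed by Sult1a1 at 151, Mettl7a1 at 79.1, Aldh1a1 at 66.3, Abcg2 at 15.9, Mgst1 at 6.29, Abcb1b at 4.55 and Abcb1a at 1.89. With the longest transcript as the length, Aldh1a1 (139 CPM per kb) passed Mettl7a1 (105 CPM per kb).

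Shares of cells with a count were taken after each cell was thinned to 20000 counts, since depth differs between populations. Sult1a1 had a count in 53.2% ± 11.2 of HSC (SD, n = 8 mice), from 38.3% to 70.4%, but in 1.96% of MkP and 0.325% of CFU. Gstm1 was found in 79.8% of HSC, 38.3% of MkP and 8.83% of CFU, and Mettl7a1 in 71.1%, 19.8% and 41.1%. Aldh1a1 was found in most cells of every population, with 82.8% of HSC, 76.1% of MkP and 89.9% of CFU. Abcg2 was found in more CFU (79.8%) than HSC (59.8%) or MkP (43.9%). Abcb1b had a count in 28.4% of HSC, 21.4% of MkP and 1.25% of CFU, and Mgst1 in 12.2%, 3.33% and 1.88%. Abcb1a had a count in 8.94% of HSC, 2.50% of MkP and 0 of 647 CFU. If cells are taken as independent, that zero allows up to 0.464% of CFU (3 of 647) with a count at this depth. The cells come from 8 mice, and this limit leaves out the spread between mice. The zero sets no limit on CFU that express the gene. With all counts used, in CFU that are also deeper, the shares moved: Abcb1a was found in 27.1% of HSC, 14.3% of MkP and 19.7% of CFU, so the order of MkP and CFU reversed. That CFU share rests on 151 counts in 126 cells, the highest cell at 3.2 CPM, against 6064 counts in 188 MkP. With all counts Sult1a1 was found in 70.1% of HSC, 18.6% of MkP and 11.5% of CFU, and Mettl7a1 in 84.5%, 41.3% and 81%. Over the 8 genes, 3 populations and both other depths (100000 counts and all counts), 37 of 48 shares moved by more than 1 SD between mice.

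**Figure D2:**
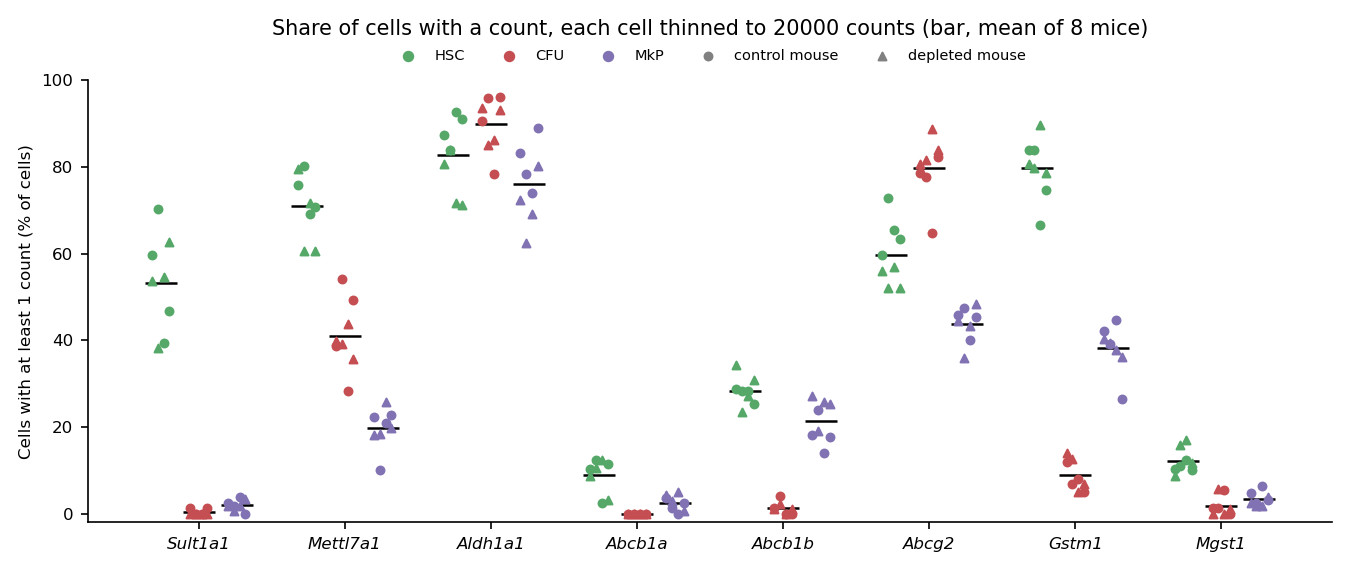
Share of cells (percent) with at least 1 count of each gene after each cell was thinned to 20000 counts, with 1 point per mouse and a bar at the mean of 8 mice, for HSC, CFU and MkP. Sult1a1 ran from 38.3% to 70.4% of HSC and reached 1.33% of CFU, while Abcg2 had its highest mean, 79.8%, in CFU.

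A median of 4 of the 8 genes was found per HSC, against 2 per CFU and 2 per MkP, at this depth. At least 6 of the 8 were found in 90 of 697 HSC (12.9%), in 1 of 1324 MkP and in 0 of 647 CFU. With all counts used these shares were 45.5% of HSC, 7.48% of MkP and 3.71% of CFU, so the zero in CFU holds for the thinned depth. Nothing is read from these numbers of genes per cell, because the set was chosen partly for high levels in HSC. Among HSC, pairs of genes went together weakly from cell to cell. Spearman's rho over 697 thinned HSC was 0.318 for Gstm1 and Sult1a1, 0.309 for Gstm1 and Mettl7a1, and 0.262 for Mettl7a1 and Sult1a1. The pumps had values near 0 with one another, such as 0.0275 for Abcb1a and Abcb1b. These cells come from 8 mice and share libraries, so the values are descriptions.

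CFU against MkP is the population comparison without HSC, on whose levels the choice of genes partly rested. It is not fully separate from that choice, as 311 of 1324 MkP but 4 of 647 CFU held the HSC list. Those MkP had 50.2% of the Sult1a1, 46.7% of the Abcb1a, 30.5% of the Abcb1b and 25.4% of the Gstm1 counts in MkP. They had 28.7% of the Abcg2 and 19.6% of the Mettl7a1 counts. Their part in the values below was not tested. Of the 8 genes, 6 passed the test (edgeR's quasi-likelihood test, Benjamini-Hochberg adjustment over 19573 genes), 4 lower and 2 higher in CFU. Over all genes, 55.3% passed, 31.8% lower and 23.5% higher in CFU, so a share of 6 in 8 is not far from the background. Abcb1b was lower in CFU by a log2 fold change of −4.45 (SE 0.37, adjusted p = 5.1e-10). Abcb1a was lower by −4.26 (SE 0.64, adjusted p = 4.28e-06), Sult1a1 by −3.39 (SE 0.57, adjusted p = 2.23e-05) and Gstm1 by −1.60 (SE 0.33, adjusted p = 0.000208). Abcg2 was higher in CFU by 1.05 (SE 0.098, adjusted p = 3.35e-09) and Mettl7a1 by 0.76 (SE 0.15, adjusted p = 0.000157). In CFU every Abcg2 sum (117 to 182 CPM) exceeded every MkP sum (66 to 92.6 CPM). Aldh1a1 did not pass at 0.02 (SE 0.099, adjusted p = 0.892), nor Mgst1 at −0.30 (SE 0.88, adjusted p = 0.80).

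Cells of other types and depth move with some of these values. Without the cells that held a myeloid, neutrophil, mast and basophil or B cell list, Gstm1 was lower in CFU by −3.05. Mgst1 was then lower by −4.49 (edgeR adjusted p = 0.0011), so that 7 genes passed. That setting takes out no cell for its HSC list. The myeloid list summed to 2.20 to 1292 CPM in CFU and to 63.9 to 340 CPM in MkP, with none of its genes at 0 in either. With each cell thinned to 20000 counts, Mettl7a1 came to 0.29 (edgeR adjusted p = 0.183) and no longer passed. Scaling by totals alone moved the median of all genes by −0.33 and the calls from 4604 higher and 6228 lower to 2993 higher and 8013 lower, and Aldh1a1 then passed as lower in CFU at −0.32 (edgeR adjusted p = 0.00511). The 6 genes that passed first kept their direction under these 3 settings.

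**Figure D3:**
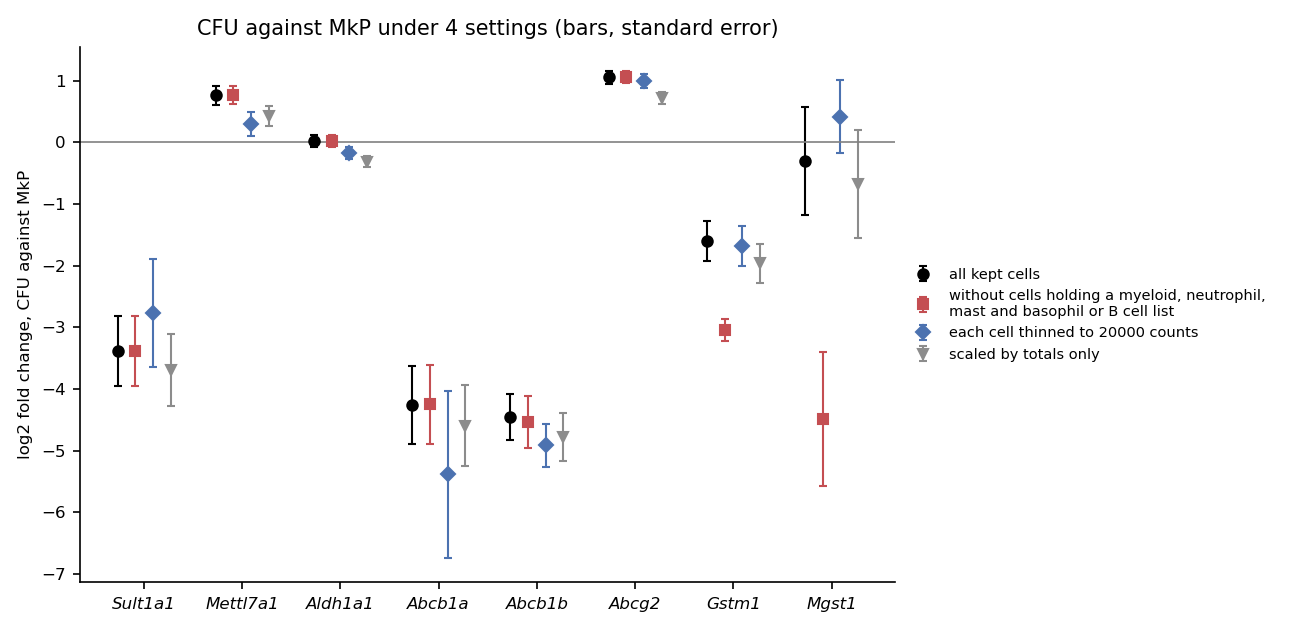
Log2 fold change of each gene in CFU against MkP (y axis), with bars of 1 standard error, under 4 settings. The 3 genes at −3.39 or lower stayed far under 0 in each, while Gstm1 and Mgst1 moved to −3.05 and −4.49 without cells of other types.

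The rest of the pathway was read from 8 lists that hold 140 genes besides these 8. Of the 140 genes, 111 were tested in CFU against MkP, and 80 of them passed, 35 higher and 45 lower in CFU. That is 72.1% against 55.3% of all genes, with a median log2 fold change of −0.72 against −0.21 over all genes. The lists were chosen with earlier results of these data known, so these shares are a description. Counts per list below include the 8 genes where they belong to it.

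Glutathione synthesis and recycling genes were mostly higher in CFU, with 6 higher and 3 lower of 11 tested. Gclc and Gclm, the subunits of the enzyme that makes glutathione's first bond, were higher by 1.66 (SE 0.18) and 1.53 (SE 0.097), with Gclm at 489 CPM in CFU and 169 CPM in MkP. Ggt5, which cleaves glutathione conjugates outside the cell, was lower by −7.46 (SE 0.75). Of the glutathione transferases, 7 were higher and 11 lower of 22 tested. Mgst3, a membrane-bound family member, was higher by 3.06 (SE 0.13), at 117 CPM in CFU against 14 CPM in MkP, and Gstp3 by 6.33 (SE 1.18). Gstm2 and Gstm7 of the mu class were lower by −8.12 (SE 0.63) and −6.32 (SE 0.69). Each list gene named in this and the next paragraphs passed edgeR's test, apart from Aldh1a1, with Bach1 at the highest adjusted p (0.00776).

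Among aldehyde dehydrogenases 4 were higher and 6 lower of 17 tested. Aldh1a7, a near copy of Aldh1a1 that shares sequence with it, stood at 136 CPM ± 14.2 in CFU (SD, n = 8) against 2.76 CPM ± 1.95 in MkP and 1.92 CPM ± 2.53 in HSC, whereas Aldh1a1 itself was high in all. Aldh4a1, of proline breakdown, was higher in CFU by 1.38 (SE 0.17). Aldh1l1, the folate dehydrogenase, was lower by −5.94 (SE 0.66) and the mitochondrial Aldh1b1 by −4.55 (SE 1.24). The other phase I enzymes had 6 higher and 11 lower of 21 tested, with the quinone reductase Nqo1 higher by 1.81 (SE 0.16) and the epoxide hydrolase Ephx2 by 4.95 (SE 1.03). Akr1c12, an aldo-keto reductase, was lower by −7.39 (SE 0.45) and the monooxygenase Fmo5 by −3.01 (SE 0.48).

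None of the sulfotransferase and PAPS genes was higher in CFU, and 4 of 7 tested were lower. Papss1, which makes the sulfate donor, was lower by −1.55 (SE 0.15), at 21.3 CPM in CFU and 62.2 CPM in MkP, with HSC at 62.5 CPM. Methyl and other conjugating enzymes had 3 higher and 2 lower of 10 tested. The acetyltransferase Nat2 was higher by 1.24 (SE 0.17), whereas the histamine methyltransferase Hnmt was lower by −3.65 (SE 0.63) and Ugt1a7c, a glucuronosyltransferase, by −3.66 (SE 0.78).

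ABC transporters of subfamilies B, C and G had 8 higher and 6 lower of 17 tested. Abcg4 stood at 106 CPM in CFU and 1.02 CPM in MkP, and the phospholipid flippase Abcb4, another neighbour in sequence of the P-glycoproteins, at 208 CPM in CFU, 29 CPM in MkP and 7.48 CPM in HSC. Abcg1, a cholesterol exporter, was lower by −6.44 (SE 0.44), at 1.35 CPM in CFU, 113 CPM in MkP and 152 CPM in HSC. The regulators had 3 higher and 6 lower of 14 tested. Nfe2l2, the transcription factor NRF2, was higher by 1.21 (SE 0.094), and its competitor Bach1 was lower by −0.96 (SE 0.29). Hif1a was lower by −1.16 (SE 0.13). Arnt, the partner of the aryl hydrocarbon receptor, was higher by 0.59 (SE 0.12), and by 0.25 with scaling by totals alone, where it did not pass (edgeR adjusted p = 0.0928).

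HSC differ among themselves, and the proliferation gene Mki67 served as a first division. After thinning to 20000 counts, 69 of 697 HSC had a count of Mki67. Cells were summed per mouse and class, and the 7 mice with at least 5 cells in each class entered a fit with the mouse as a term; depleted mouse 3, with 2 such cells, was dropped. Sult1a1 stood at 100, 250, 67.5 and 150 CPM in the Mki67 class of control mice and at 5.56, 0 and 21.4 CPM in depleted mice 1, 2 and 4. In the class without Mki67 it stood at 309, 350, 255 and 305 CPM in control and at 267, 194 and 408 CPM in those depleted mice. It was lower with Mki67 in 7 of 7 mice, though the ranges of the classes (0 to 250 and 194 to 408 CPM) overlap. The log2 fold change was −2.07 (SE 0.32, edgeR adjusted p = 3.19e-05).

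Gstm1 was lower with Mki67 in 7 of 7 mice as well, at 132 CPM ± 51.4 against 313 CPM ± 60.9 (SD, n = 7), with ranges of 80 to 206 and 236 to 414 CPM that do not overlap. Its log2 fold change was −1.29 (SE 0.18, edgeR adjusted p = 7.21e-06). Mettl7a1 was lower in 7 of 7 mice too, at 134 CPM ± 52.1 against 251 CPM ± 54.5, with a log2 fold change of −0.92 (SE 0.19, edgeR adjusted p = 0.00134). These 3 of 6 genes tested compare with 2.73% of 8689 genes that were lower and 6.72% that passed in either direction. The set was chosen partly for high levels in HSC, and 4 of 9 tested genes of the HSC marker list were lower too. Nothing about detoxification genes as a set is read from this share. Aldh1a1 did not pass at 0.02 (SE 0.14), nor Abcb1b at −0.59 (SE 0.39), nor Abcg2 at −0.16 (SE 0.22). At 20000 counts Abcb1a and Mgst1 were too low to be tested and stood at 1.59 and 2.66 CPM with Mki67 against 12.5 and 14.6 CPM without. Abcb1a was lower in 7 of 7 and Mgst1 in 6 of 7 mice. At 50000 counts both could be tested and neither passed, with Abcb1a at −2.47 (SE 0.81, edgeR adjusted p = 0.0942) and Mgst1 at −1.09 (SE 0.61, edgeR adjusted p = 0.365).

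The classes differ in more than Mki67. Cells of the Mki67 class had a median of 1877390 counts and 7417 genes before thinning, against 1312452 and 5835 without. The HSC marker list summed to 1050 to 1664 CPM with Mki67 and 1500 to 2317 CPM without, with 4 of its 9 tested genes lower (Ly6a, Procr, Mllt3 and Hlf) and 0 higher. Of the megakaryocyte list Itga2b was higher, and of the erythroid list 2 were higher (Epor and Car2) of 3 tested. The neutrophil list reached 4821 CPM in 1 mouse with Mki67 and at most 4.92 CPM without. The part of these lists in the change of Sult1a1, Gstm1 and Mettl7a1 was not tested. Leaving out cells with a myeloid, neutrophil, mast and basophil or B cell list kept 66 of the 69 cells with Mki67. The 3 genes passed in that setting, which takes out no cell for its HSC, megakaryocyte or erythroid list. Of the other pathway genes, 61 were tested and 1 passed, Por, the electron donor of cytochrome P450 enzymes, at −0.70 (SE 0.16, edgeR adjusted p = 0.00393).

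The Mki67 calls depend on the thinning. With all counts used, 316 HSC had a count of Mki67, all 8 mice entered, and none of the 8 genes passed, at −0.49 for Sult1a1 (edgeR adjusted p = 0.654), −0.15 for Gstm1 and −0.14 for Mettl7a1. In that fit 31 of 14925 genes passed in all.

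Vwf, a megakaryocyte gene that marks a platelet-biased kind of stem cell in the literature, served as another division, with 296 HSC that had a count after thinning and 401 that had none, in all 8 mice. Sult1a1 stood at 453, 393, 368 and 393 CPM with Vwf in control mice and at 424, 160, 611 and 525 CPM in depleted mice. Without Vwf it stood at 133, 245, 99.0 and 246 CPM in control and at 132, 187, 188 and 207 CPM in depleted mice. It was thus higher with Vwf in 7 of 8 mice, all but depleted mouse 2. The log2 fold change was 1.21 (SE 0.16, edgeR adjusted p = 7.61e-05), and 0.502% of 8965 genes passed as higher, 0.948% in either direction.

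None of the other 7 genes passed between the Vwf classes. Gstm1 had a log2 fold change of 0.06 (SE 0.10) and Mettl7a1 of 0.02 (SE 0.12), so the genes that were lower along with Sult1a1 in the Mki67 class did not pass here. Mgst1 had −0.96 (SE 0.42, edgeR adjusted p = 0.437), with 6 of 8 mice lower. The median depth before thinning was 1422100 counts with Vwf and 1302704 without. Besides Vwf itself, 4 genes of the megakaryocyte list were higher (Pf4, Cavin2, Itga2b and Gp9), the summed list without Vwf standing at 1554 to 2577 CPM against 1184 to 1633 CPM with Gp6 at 0 in both, and of the HSC list Mllt3 was higher by 0.98. Their part in the Sult1a1 value was not tested. Of 67 other pathway genes tested 1 passed, Abcg1, lower with Vwf by −0.48 (SE 0.11, edgeR adjusted p = 0.0321). With all counts used, Sult1a1 was higher with Vwf in 8 of 8 mice, at 1.07 (SE 0.21), but did not pass (edgeR adjusted p = 0.293), as 3 of 14721 genes did.

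**Figure D4:**
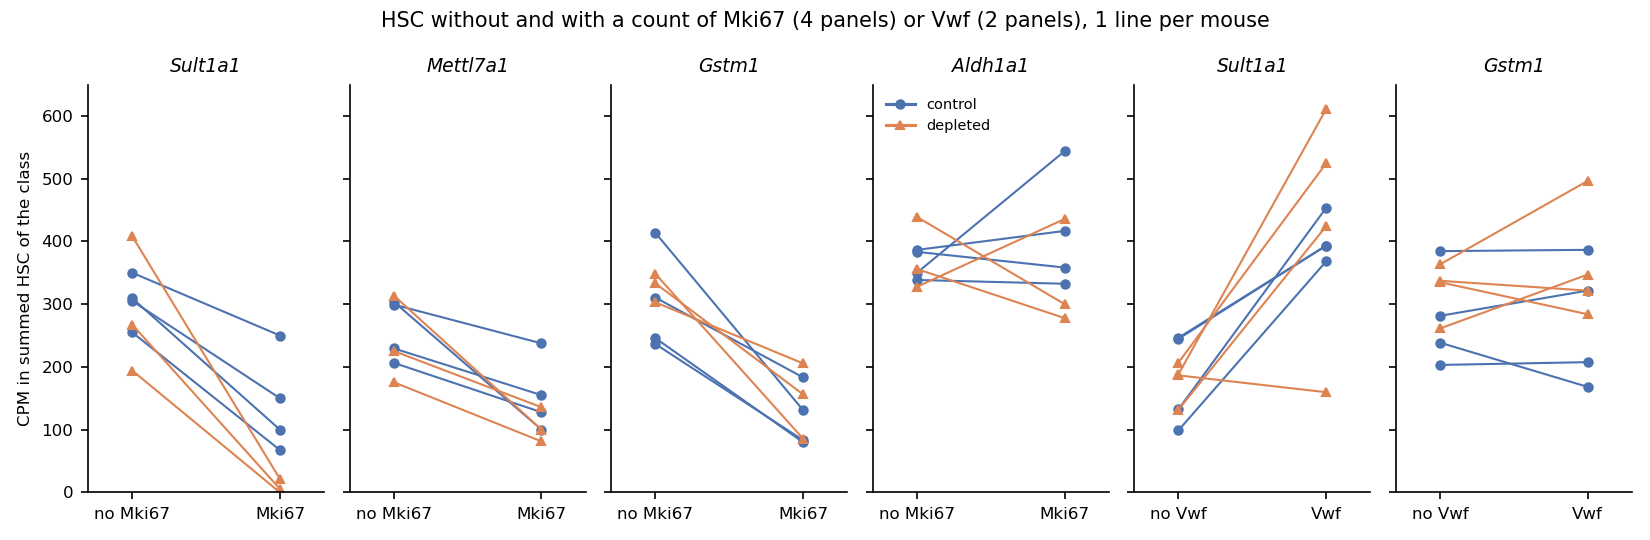
CPM in summed, thinned HSC without and with a count of Mki67 (first 4 panels, 7 mice) or Vwf (last 2 panels, 8 mice), with 1 line per mouse. Sult1a1, Mettl7a1 and Gstm1 go down with Mki67 in 7 of 7 mice, and Sult1a1 goes up with Vwf in all but depleted mouse 2.

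The clonal barcode gave a further division, by the authors' call of a barcode as present or absent. It took in 7 mice, since depleted mouse 2 had 3 HSC without a barcode and was dropped. None of the 6 genes tested passed, and Sult1a1 stood at 300 CPM ± 50.7 with and 298 CPM ± 160 without a barcode. Of all 8710 genes 0% passed in edgeR's test, 325 had an unadjusted p under 0.05 with 0 of the 6 among them, and DESeq2 called 2 genes.

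Platelet depletion was compared with control within each population. None of the 8 genes passed edgeR's test in HSC, CFU or MkP, where 0%, 0% and 0.0108% of all genes passed. DESeq2 called 0, 0 and 2 of the 8, and 267, 472 and 955 of all genes. At an unadjusted p under 0.05 edgeR had 0, 0 and 2 of the 8, and 1467, 1857 and 2532 of all genes. In HSC the log2 fold changes of depleted against control lay between −0.16 (Abcb1a) and 0.34 (Mgst1), with Sult1a1 at 0.06 (SE 0.23) and Mettl7a1 at −0.15 (SE 0.19). The other 140 pathway genes had 0 calls in each population as well, with 9 of 105, 5 of 90 and 11 of 104 at an unadjusted p under 0.05.

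The pair under 0.05 was in MkP. Mettl7a1 stood at 20.3, 14.3, 25.2 and 23.4 CPM in control and 31.7, 30.2, 41.7 and 28.3 CPM in depleted MkP, so the groups do not overlap, as 4.23% of all genes did in this direction. Its log2 fold change was 0.68 (SE 0.20), with an edgeR adjusted p of 0.201. Abcb1b stood at 14.4, 25.1, 13 and 18.7 CPM in control and 28.5, 24.9, 27.2 and 32.5 CPM in depleted MkP, where 1 control mouse overlaps, at 0.68 (SE 0.21, edgeR adjusted p = 0.225). DESeq2 called both, at adjusted p of 0.0213 and 0.0306. The HSC marker list summed to 483 to 677 CPM in depleted and 400 to 579 CPM in control MkP, with none of its genes at 0 in either. Of all 1324 MkP, the 311 that held this list had 19.6% of the Mettl7a1 and 30.5% of the Abcb1b counts. Their part in these values was not tested.

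The difference of the treatment effect between populations was tested too. By edgeR and by DESeq2 none of the 8 genes passed in any of the 3 pairs of populations, where 0%, 0% and 0.0144% of genes did in edgeR. For Mettl7a1 the effect was 0.79 higher in MkP than in HSC (SE 0.25, edgeR adjusted p = 0.605). In CFU, Abcg2 stood at 117 to 154 CPM in control and 158 to 182 CPM in depleted mice, which do not overlap, as 5.51% of genes did in this direction, at a log2 fold change of 0.18 (SE 0.10, edgeR adjusted p = 0.526). In HSC the share of cells with Abcg2 at 20000 counts went the other way, from 59.8% to 72.8% in control and 52.1% to 56.8% in depleted mice, again without overlap, as 4.19% of genes did in this direction, and no test was made of it. At 100000 counts the shares did not overlap either, at 66.7% to 77.5% in control and 59.6% to 64.8% in depleted mice. With all counts used the shares overlap, at 75.9% to 90.1% in control and 71.3% to 78.5% in depleted mice.

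**Figure D5:**
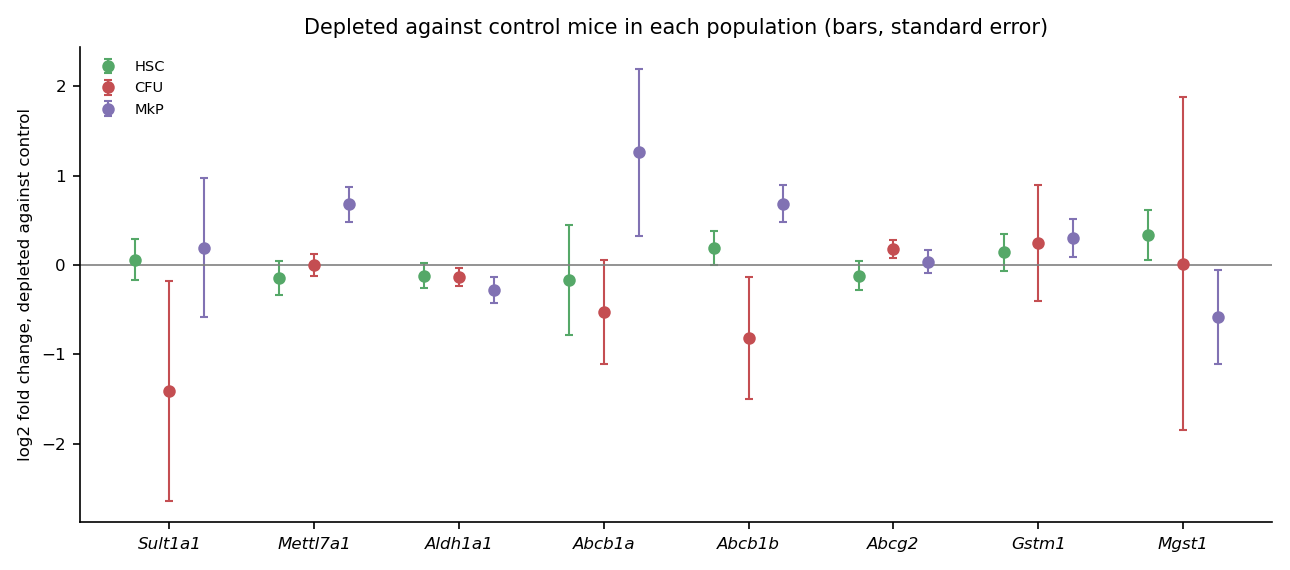
Log2 fold change of depleted against control mice (y axis) for each gene in HSC, CFU and MkP, with bars of 1 standard error. None passed edgeR's test, and Mettl7a1 and Abcb1b in MkP, which DESeq2 called, both at 0.68, lie farthest from 0 for their standard error.

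The genes whose pattern was most like each of the 8 were taken by Pearson's r of log2 CPM over the 24 sums, among 10259 genes. The sums share 8 mice and 3 populations, so r mostly repeats the differences between populations. Sult1a1 went closest with Procr (r = 0.984), the protein C receptor used to sort HSC, at 159 CPM in HSC, 1.3 in MkP and 0.0445 in CFU, followed by Pde1b (0.962) and Glul (0.96). Mettl7a1 went with Smpdl3a (0.953), Coro7 (0.943) and Sh2b3 (0.92), the last an adaptor that restrains cytokine signalling. Gstm1 went with Limd2 (0.968), Ldhb (0.967) and Orai1 (0.96), and Mgst1 with Gpc1 (0.92), Socs2 (0.903) and Axl (0.901). Abcb1b went with Fhl1 (0.983), Slc24a5 (0.982) and Ghr (0.982), and Abcb1a with Zfp532 (0.941), Sox18 (0.934) and Sorbs2 (0.929). Abcg2 went with Ctsb (0.943), Aplp2 (0.922) and Nprl3 (0.919). Aldh1a1, nearly level across populations, had no close match, with Ids first at 0.782, then Cerkl (0.735) and Atp2b4 (0.733). Among the 8 themselves, the highest r was 0.918 for Sult1a1 and Gstm1, and the lowest −0.55 for Abcb1b and Abcg2.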

How the data were processed

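The deposited counts per gene symbol, with 1 column per well, are raw ones that the authors made with Trim Galore 0.5, STAR 2.6.0 and HTSeq 0.6.1, per the submitters' processing notes; the sources used here give no genome build, annotation or strand rule. Counts of Smart-seq2 are reads after amplification, so shares and limits cover counting error only. A deposited table of 2860 wells gives, per the file headers, total counts, barcode counts, a barcode call and a diversity score (the Shannon index); only the call was used. Of 3070 matrix columns 3069 matched a sample title and 1 was not used, and 1 row of the table matched no sample. For 93 CFU wells of control mouse 2 that the table calls MkP the label was followed; the 69 kept among them all held the erythroid list and 1 held the megakaryocyte list.

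The genes and lists were chosen with earlier results of these data known. Wells with at least 20000 counts, 1000 genes and at most 20% mitochondrial counts were kept, and no doublet caller was run. The code in the titles was taken as the mouse, which is the replicate. Sums per mouse and population were tested with edgeR 4.0.16 (R 4.3.3; TMM, filterByExpr, quasi-likelihood test, Benjamini-Hochberg adjustment, called under 0.05), with 4 against 4 mice for treatment and treatment as a covariate for populations. The SE is the log2 fold change divided by the square root of F. CPM follow TMM scaling, except that values by HSC class, and those called of the whole sum, use totals. HSC classes were summed from cells thinned to 20000 counts. Named list genes are the 2 largest rises and falls per list that passed with a mean of at least 5 CPM over the sums (1 of them is not reported here), and nearest patterns are the 3 highest r. Exon lengths and overlaps come from GENCODE M21, promoters from RefSeq. DESeq2 1.42.0, other filters, scalings, depths and left-out mice were alternatives, and the fit with totals only, the classes without cells of other types, the classes without each mouse, the number of genes per cell with all counts and the list sum without Vwf were added after seeing the data. The edgeR fit was tested on simulated data. Populations come from the same mice, and sums of the same mouse correlated at 0.0171 to 0.0788 in their deviations from the group means. These values are small but all positive, and no correlation between different mice was computed as a reference. The main fit of populations has no mouse term, and the fit with the mouse as a block is an alternative.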

Additional observations from a re-analysis of the deposited data

Results flagged for a closer look

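In 6 of 48 groups of 4 mice, 1 mouse stood apart from the other 3 by a gap that is large for the group's range, which chance alone gives in about 1 group in 20. In control HSC, mouse 2 was highest for Abcb1b, at 41.8 CPM against 30.5 to 31.6 CPM in the others, and for Abcg2, at 175 CPM against 117 to 126 CPM. In depleted HSC, mouse 2 was highest for Aldh1a1, at 405 CPM against 278 to 290 CPM, and lowest for Abcb1b, at 30 CPM against 41.3 to 42.7 CPM. The same depleted mouse was highest for Gstm1 in MkP, at 70.3 CPM against 54.3 to 55.2 CPM. In control CFU, mouse 3 was lowest for Abcg2, at 117 CPM against 150 to 154 CPM.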

How the results depend on the processing

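Of the 8 genes, 6 passed in CFU against MkP, and 5 to 7 did under each alternative run. The number was 6 with the mouse as a replicate block and with any mouse left out. It was 7 without cells of other types or with totals only. With thinned cells it was 5, as with a mean of at least 8 CPM, a filter that left Abcb1a and Mgst1 untested. For CFU against MkP, calls over all genes are given above for the main run and for totals only. Those of the other runs are not reported here. Aldh1a1 turned to −0.32 in CFU against MkP with totals only. In depleted MkP, DESeq2 called 2 genes where edgeR called 0; in HSC and CFU, in the tests of a differing treatment effect and in the barcode classes the number was 0 under each alternative run. In the HSC classes by Mki67 and Vwf, 3 and 1 genes passed and 0 and 0 did when cells were not thinned; without the mouse as a block, with DESeq2, at 50000 counts, without cells of other types and with any mouse left out the numbers were 3 and 1. The cause of these shifts was not tested. At 20000 counts Abcb1a and Mgst1 were too low for a test between the Mki67 classes, and neither passed at 50000 counts or with all counts.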
